A study of Homo sapiens with 22 samples.

Results

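The cytosolic aminoacyl-tRNA synthetases, their scaffold proteins and the enzymes of serine, folate one-carbon, proline, arginine and alanine metabolism were followed in the transcriptome of Caco-2 cells. Caco-2 is a human cell line from a colorectal adenocarcinoma and serves as a model of the gut epithelium. The set was a named list of 34 genes, found by symbol in a table of 61487 genes, and all 34 passed the filter on low counts, as did 20373 genes in all. It held 12 synthetases that work outside the multi-synthetase complex, 7 synthetases of that complex, 3 scaffold proteins of the complex, 3 enzymes of serine synthesis, 5 folate one-carbon enzymes and 4 enzymes that make proline, arginine or alanine. The cells were labelled undifferentiated and wildtype, and came from this line alone. They were cultured for 48 h and then kept for 48 h in medium of which 10% was replaced by PBS, the vehicle (PBS group, n = 4), by faecal water of untreated mice (FWctl, n = 7), by faecal water of the same mice during antibiotic treatment (FWatb, n = 7), or by the cocktail given to the mice, with neomycin at 1 g/L, vancomycin at 0.5 g/L and meropenem at 0.25 g/L (ATB, n = 4). Faecal water is the supernatant of faeces homogenized in PBS. In all groups the medium was high-glucose DMEM with foetal bovine serum, nonessential amino acids and an antibiotic-antimycotic mix, so the PBS controls also met antibiotics. The design asked whether material from the gut changes the cells, whether it still does after the microbiota is depleted, and whether the antibiotics act on the cells themselves.

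Aminoacyl-tRNA synthetases join each amino acid to its tRNA and so supply the ribosome. In animal cells several of them sit in one large cytosolic complex held together by the proteins AIMP1, AIMP2 and EEF1E1. Serine is made from a glycolytic intermediate by PHGDH, PSAT1 and PSPH, and serine hydroxymethyltransferases pass one of its carbons to tetrahydrofolate, in the cytosol (SHMT1) or in mitochondria (SHMT2). Many of these genes are known targets of ATF4, the transcription factor of the integrated stress response, which is translated when amino acids run short or proteins misfold and binds, with C/EBP partners, a composite site called the C/EBP-ATF response element.

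The core of that element, TGATGNAA, was searched on both strands of the RefSeq promoters of GRCh38.p14, from 250 bases before to 50 after each start, and its matches are shown because the members that carried it can be set beside their changes. Of the 34 genes, 26 had an entry, and VARS1, YARS1, LARS1, PSPH, SHMT2, ALDH1L2, PYCR1 and GPT2 did not. The core was present in 8 of 26 (30.8%), against 4.46% of the 27305 genes in the promoter table. The 8 matches are printed 5′ to 3′ on the strand that reads the core, with the core in capitals.
TARS1: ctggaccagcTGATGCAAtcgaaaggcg
MTHFD1L: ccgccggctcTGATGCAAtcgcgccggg
GARS1: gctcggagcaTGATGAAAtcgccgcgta
IARS1: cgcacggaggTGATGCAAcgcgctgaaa
CARS1: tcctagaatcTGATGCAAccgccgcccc
MARS1: aatccctcgcTGATGCAAccggaaccgg
AARS1: ctaacttggcTGATGCAActgcgagaaa
NARS1: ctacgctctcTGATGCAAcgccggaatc
Of the 8 cores, 7 read TGATGCAA and the one of GARS1 read TGATGAAA. The stretches lie at chr5:33440957-33440984 (TARS1, minus strand), chr6:150866347-150866374 (MTHFD1L, plus strand), chr7:30594835-30594862 (GARS1, minus strand) and chr9:92293693-92293720 (IARS1, plus strand). The others lie at chr11:3057408-3057435 (CARS1, plus strand), chr12:57488054-57488081 (MARS1, minus strand), chr16:70289676-70289703 (AARS1, plus strand) and chr18:57621805-57621832 (NARS1, minus strand). Counted from the annotated start, the core was centred between positions -29 (GARS1) and 18 (NARS1) in TARS1, GARS1, IARS1, CARS1, MARS1 and NARS1, and at -183 in AARS1. In MTHFD1L the single core lay at -125, -86 or 28, depending on which annotated start is used.

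Total counts ranged from 7118302 to 18726967 per library. FWctl replicate 1 stood apart from the other FWctl libraries, with a first principal component of 7.35 against 27.2 to 31.1 in the other 6 and -14 to -9.13 in the other groups. The study's methods exclude 1 FWctl sample that was an outlier in such an analysis, without naming it. The values below therefore rest on the other 21 libraries, with that library shown apart. The share of counts on the ribosomal DNA repeat was 0.0163% to 0.0805% in 8 libraries and 1.87% to 8.19% in 14, and all FWatb libraries were in the second set. Levels are given as CPM, a gene's counts scaled to a common library total after TMM normalization. A gene was called changed at an adjusted p under 0.05 in edgeR's quasi-likelihood test, fitted and adjusted over all 20373 genes. In such bulk RNA, a lower level per cell and a smaller share of cells that express a gene cannot be told apart.

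Under FWctl the set as a whole stood high. The 34 genes together took 2930 ± 155 CPM (SD, n = 4) under PBS, 7380 ± 291 under FWctl (n = 6), 3480 ± 277 under FWatb (n = 7) and 2860 ± 93.7 under ATB (n = 4). The FWctl libraries, at 6960 to 7650, lay above every library of the other groups, of which the highest was at 3880. Against PBS, 31 of the 34 genes were called higher under FWctl, 1 was called lower and 2 were not called. Among all genes tested, 24.3% were called higher and 22.1% lower in this comparison. The median log2 fold change of the members was 1.40, against 0.02 over all genes, and 20 members changed by more than 1. How many of all genes changed by more than 1 was not counted, in this or the other comparisons. The levels of 29 of the 34 members did not overlap between FWctl and PBS, against 33.7% of all genes tested. All 29 reached the smallest p that the exact two-sided permutation test allows here, 0.00952, which any gene without overlap gives.

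All 12 synthetases outside the complex were called higher under FWctl, with log2 fold changes from 0.20 to 2.16 and a median of 1.57. YARS1, the tyrosyl-tRNA synthetase (chr1:32775237-32818031, minus strand, GRCh38), was measured at 29.8, 26.4, 25.5 and 27.0 CPM under PBS. Under FWctl its lowest, median and highest levels were 108, 120.3 and 134 CPM. The groups were far apart, and YARS1 rose 4.47-fold (log2 fold change 2.16 ± 0.10 (SE), adjusted p = 3.42e-21, edgeR). AARS1, for alanine, went from 66.4 ± 6.53 to 241 ± 18.6 CPM (log2 fold change 1.86). CARS1 (1.81), TARS1 (1.81), GARS1 (1.79), WARS1 (1.60) and SARS1 (1.54), for cysteine, threonine, glycine, tryptophan and serine, rose by similar amounts. NARS1, for asparagine (1.09), and HARS1, for histidine (0.64), rose less.

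The phenylalanyl and valyl enzymes lay at the bottom of this class. FARSA and FARSB encode the subunits of one phenylalanyl-tRNA synthetase. FARSB was at 41.3, 37.3, 42.8 and 44.7 CPM under PBS and at 42.5, 47.4 and 52.9 (lowest, median, highest) under FWctl. These ranges overlapped, and its log2 fold change of 0.20 ± 0.09 passed the threshold narrowly (adjusted p = 0.0495, edgeR). The call was lost in 8 of 10 fits without 1 library and kept without FWctl replicate 3 or PBS replicate 4, and DESeq2 did not make it. FARSA rose by 0.38 ± 0.11 (adjusted p = 0.00313, edgeR) with overlapping ranges, and its call was lost without PBS replicate 2 (adjusted p = 0.0667, edgeR). VARS1, for valine, rose by 0.48 ± 0.12 (adjusted p = 0.000705, edgeR), from 25.4 to 30.4 CPM under PBS to 33.0 to 40.5 under FWctl.

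Within the complex the 7 synthetases went different ways, with 6 called higher and 1 lower. MARS1, the methionyl-tRNA synthetase (chr12:57475445-57517569, plus strand), was at 82.2, 87.6, 82.4 and 97.2 CPM under PBS. Its lowest, median and highest levels under FWctl were 371, 396 and 436 CPM. No library came near the other group, and the log2 fold change was 2.20 ± 0.09 (adjusted p = 4.39e-23, edgeR), a 4.59-fold rise. EPRS1, which joins both glutamate and proline to their tRNAs, rose 3.56-fold (1.83 ± 0.08), and LARS1 (1.76), IARS1 (1.64) and RARS1 (0.73), for leucine, isoleucine and arginine, also rose. Of the exon bases of MARS1, 12.4% overlap genes on the other strand, among them DDIT3 (log2 fold change 0.73). Whether the counting used strand is not given in the sources used here, so reads there may be shared.

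QARS1, the glutaminyl-tRNA synthetase (chr3:49095932-49105130, minus strand), was the only member called lower. It was at 108, 118, 121 and 127 CPM under PBS and at 74.3, 82.2 and 96.3 (lowest, median, highest) under FWctl. The highest FWctl library lay below the lowest PBS library, and the log2 fold change was -0.49 ± 0.08 (adjusted p = 8.81e-07, edgeR). KARS1, the lysyl-tRNA synthetase, was at 95.2, 106, 113 and 108 CPM under PBS and at 111, 120.2 and 130 under FWctl. Its ranges overlapped. Its call as higher (0.18 ± 0.08, adjusted p = 0.0492, edgeR) was lost in each of the 10 fits without 1 library and in DESeq2. The scaffolds differed as well. AIMP2 rose 2.57-fold (1.36 ± 0.09) and AIMP1 by 0.47, while EEF1E1 was at 14.9, 12.9, 14.5 and 13.1 CPM under PBS and at 10.8, 12.2 and 15.9 under FWctl. EEF1E1 was not called (log2 fold change -0.16 ± 0.11, adjusted p = 0.22, edgeR), but it was called lower without FWctl replicate 7 (adjusted p = 0.0278, edgeR). Overlaps with neighbouring genes cover 29.1% of the exon bases of AIMP2 (EIF2AK1, other strand) and 18.8% of those of EEF1E1 (a same-strand readthrough gene).

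The 3 genes of serine synthesis rose together. PSAT1, the phosphoserine aminotransferase (chr9:78297125-78330093, plus strand), was at 32.9, 31.8, 31.2 and 35.0 CPM under PBS and at 184, 199.5 and 251 (lowest, median, highest) under FWctl. The groups did not overlap, and PSAT1 rose 6.30-fold (log2 fold change 2.65 ± 0.10, adjusted p = 1.89e-23, edgeR). PSPH, the phosphatase of the last step, rose 2.70-fold (1.43), and PHGDH, the dehydrogenase of the first step, 2.43-fold (1.28). PSPH has near-identical pseudogene copies, so its counts are less certain.

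Among the folate enzymes, the 4 that work in mitochondria rose and SHMT1, the cytosolic one, was not called. ALDH1L2, the mitochondrial formyltetrahydrofolate dehydrogenase (chr12:105019784-105107643, minus strand), had the largest change of the 34. It was at 2.21, 2.28, 1.45 and 1.92 CPM under PBS and at 39.7, 48.9 and 57.4 (lowest, median, highest) under FWctl. Every FWctl library was many times above every PBS library, and the rise was 25.2-fold (log2 fold change 4.66 ± 0.15, adjusted p = 2.85e-26, edgeR). SHMT2 (chr12:57229573-57234935, plus strand) was at 65.2, 67.6, 69.3 and 71.1 CPM under PBS and at 330, 373 and 400 under FWctl, a 5.43-fold rise without overlap (2.44 ± 0.08, adjusted p = 1.55e-25, edgeR). MTHFD1L, which releases formate from the mitochondrial folate pool, rose 4.38-fold (2.13 ± 0.10) and MTHFD2, the methylenetetrahydrofolate dehydrogenase of the same pathway, 4.03-fold (2.01 ± 0.10). Of the exon bases of MTHFD2, 14.1% overlap genes on the other strand, among them SLC4A5, so reads there may be shared. SHMT1 (chr17:18327860-18363563, minus strand) was at 30.4, 29.6, 34.7 and 32.2 CPM under PBS and at 32.3, 34.8 and 37.6 under FWctl. Its groups overlapped, and its log2 fold change was 0.14 ± 0.08 (adjusted p = 0.141, edgeR). The exact two-sided permutation test of this single gene gave p = 0.0476. SHMT1 has a pseudogene copy, so its counts are less certain.

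The 4 genes of proline, arginine and alanine synthesis were all called higher, by less than 1 on the log2 scale. PYCR1, the last enzyme of proline synthesis, went from 28.2 ± 2.83 to 50.2 ± 5.55 CPM (log2 fold change 0.83). ASS1, argininosuccinate synthase of arginine synthesis, rose by 0.73 and GPT2, the mitochondrial alanine aminotransferase, by 0.71. ALDH18A1, which makes the precursor of proline, had the smallest change of the class (0.51 ± 0.09), from 409, 509, 533 and 530 CPM under PBS to 619.5, 671.8 and 867.7 (lowest, median, highest) under FWctl. The median change of this class was 0.72, against 1.43 for serine synthesis and 2.13 for the folate enzymes. ASS1 has pseudogene copies. Of the exon bases of PYCR1, 15.6% overlap a gene on the other strand and 14.1% a gene on the same strand (MYADML2).

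**Figure D1:**
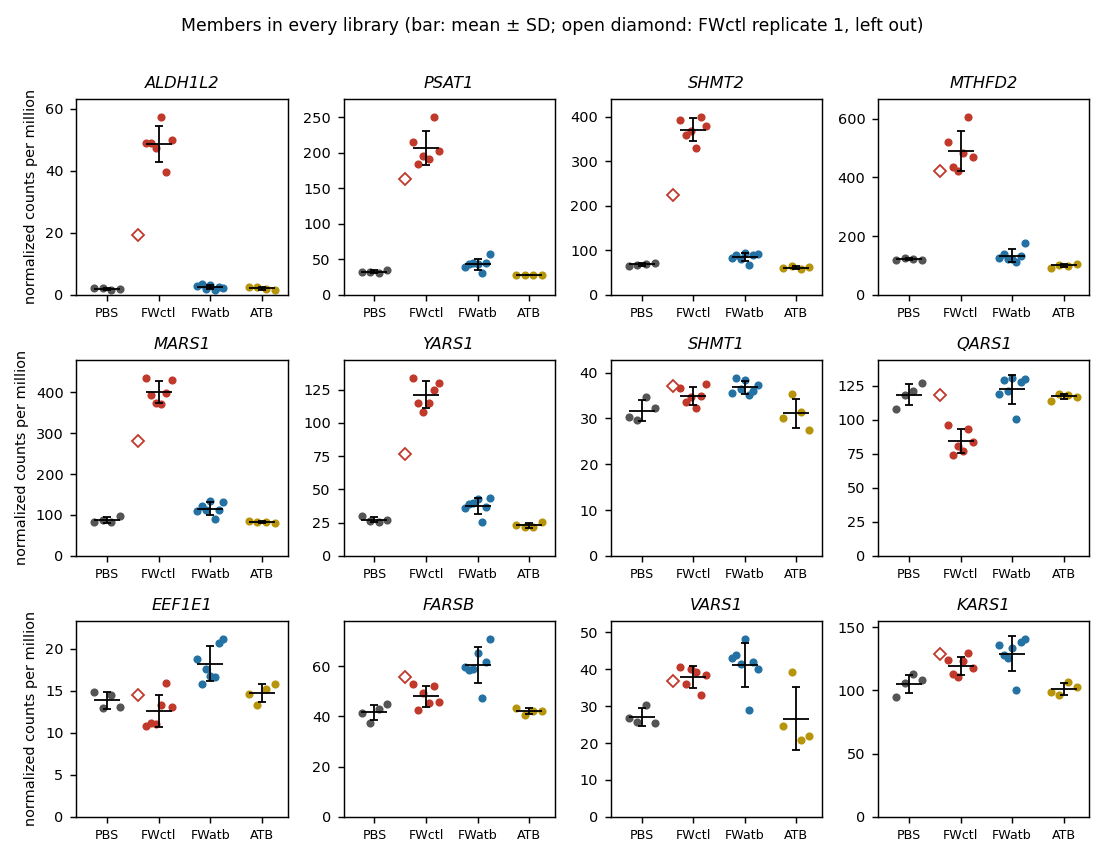
Level of 12 of the genes in each library (CPM, vertical axis, linear from 0) by group, with a point per library, bars for the mean and SD and an open diamond for FWctl replicate 1, which is left out of the mean. FWctl points stand above the others for ALDH1L2, PSAT1, SHMT2, MTHFD2, MARS1 and YARS1, below PBS for QARS1, and among or near the others for SHMT1, EEF1E1, FARSB, VARS1 and KARS1.

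Per kilobase of exon, the scale on which genes can be compared, the order of the members differed between groups. ALDH18A1 was the highest of the 34 in all 4 groups (132 CPM per kb under PBS and 187 under FWctl), also when the longest transcript was used as length. ALDH1L2 was the lowest under PBS, FWatb and ATB (0.207, 0.272 and 0.222 CPM per kb) and reached 5.12 under FWctl. By union exon length, SHMT2 moved from place 11 under PBS to 6 under FWctl, PSAT1 from 12 to 5 and QARS1 from 9 to 20. Ratios between partners changed too. The ratio of SHMT2 to SHMT1 per kb was 3.30 ± 0.184 (SD, n = 4) under PBS, 16.2 ± 0.75 under FWctl (n = 6), 3.54 ± 0.291 under FWatb (n = 7) and 3.04 ± 0.303 under ATB (n = 4). The lowest FWctl ratio, 15.4, lay far above the highest of the other groups, 3.77. The ratio of MARS1 to QARS1 was 0.457 to 0.513 in the PBS libraries and 2.86 to 3.55 in the FWctl libraries, so the order of these partners in the complex was turned around. The ratio of AIMP2 to EEF1E1 went from 1.70 ± 0.207 to 4.86 ± 0.860, and that of FARSA to FARSB from 1.35 ± 0.196 to 1.56 ± 0.145, with overlapping ranges. The size of a ratio depends on the gene length used, but its change between groups does not.

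FWctl replicate 1 lay between PBS and the other FWctl libraries for most members that changed. Its summed level was 5650 CPM. Of the 20 members that changed by more than 1, 19 lay above every PBS library and below every other FWctl library in it, and MTHFD2, at 422 CPM against a lowest value of 421, did not. On the log2 scale it covered 58.1% (LARS1) to 89.7% (IARS1) of the distance from the PBS mean to the mean of the other FWctl libraries, with a median of 73.6%. ALDH1L2 was at 19.2 CPM in it, PSAT1 at 164 and SHMT2 at 224. QARS1, at 118 CPM, lay within the PBS range. With this library included, 29 members were called higher and 1 lower, and the median log2 fold change was 1.31. Of the 20532 genes tested in that fit, 4257 were called higher and 4371 lower.

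Under FWatb the members differed from PBS far less, and in one direction. Of the 34, 23 were called higher, none lower and 11 were not called, against 6.04% called higher and 3.95% lower among all genes tested. DESeq2 called 24 higher and none lower. ASS1 was the only member with a negative log2 fold change (-0.17), and its unadjusted p in edgeR was 0.0533. The median was 0.32, against 0.000264 over all genes, and no member changed by more than 1. Leaving out 1 library gave between 16 and 25 higher calls. Among the classes, 10 of 12 free synthetases, 6 of 7 of the complex, 2 of 3 scaffolds, 2 of 3 serine genes, 2 of 5 folate genes and 1 of 4 proline, arginine and alanine genes were called.

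VARS1, MTHFD1L, FARSA and FARSB had the largest changes between FWatb and PBS. VARS1 was at 29.0, 42.1 and 48.3 CPM (lowest, median, highest), above 3 of the 4 PBS libraries throughout (log2 fold change 0.60 ± 0.11, adjusted p = 0.000393, edgeR). MTHFD1L was at 13.3, 17.3 and 19.2 CPM, without overlap with the 10.4 to 11.8 of PBS (0.57 ± 0.10, adjusted p = 0.000151, edgeR). FARSA rose by 0.56 ± 0.10 and FARSB by 0.53 ± 0.08 (adjusted p = 0.000296 and 2.00e-05, edgeR). FARSB, at 47.4, 59.5 and 70.9 CPM, lay above PBS in every library. EEF1E1, at 15.8, 17.6 and 21.2 CPM, also lay above every PBS library (0.40, adjusted p = 0.00761, edgeR). ALDH1L2, at 1.62, 2.46 and 3.61 CPM, overlapped PBS and was not called (0.41 ± 0.20, adjusted p = 0.212, edgeR), nor were PHGDH (0.08), MTHFD2 (0.13), SARS1 (0.06), QARS1 (0.05) and SHMT1 (0.21, adjusted p = 0.0630, edgeR). SHMT1 was called without FWatb replicate 6 or PBS replicate 3. It was also called by DESeq2, with library size alone, with only the groups compared and with the replicate block. Its FWatb levels lay above every PBS library, as did those of 3.94% of all genes tested. The exact two-sided permutation test then gives its smallest p, 0.00606. AARS1 (0.25), RARS1 (0.24), GARS1 (0.27), LARS1 (0.22) and PYCR1 (0.34) lost their calls in 5 to 9 of the 11 fits without 1 library, CARS1 without PBS replicate 2, and NARS1 and KARS1 without PBS replicate 1.

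With the antibiotic cocktail alone, none of the 34 was called in either direction by edgeR or by DESeq2, against 0.255% higher and 0.0295% lower among all genes tested. At an unadjusted p under 0.05, 3 of the 34 members passed in edgeR, a share near the 8.30% of all genes tested that did. They were MTHFD2 (log2 fold change -0.28 ± 0.10), YARS1 (-0.23 ± 0.11) and PSAT1 (-0.23 ± 0.11), with adjusted p-values of 0.362, 0.569 and 0.596 in edgeR. MTHFD2 was at 93.0, 103, 99.8 and 104 CPM under ATB and at 117, 126, 122 and 120 under PBS, and PSAT1 at 28.5, 28.6, 27.4 and 27.6 against 32.9, 31.8, 31.2 and 35.0. Neither overlapped, as was the case for 5.58% of all genes tested. Any gene without overlap gives the smallest p that the exact two-sided permutation test, unpaired, allows with 4 libraries against 4, 0.0286. Paired sign flips of 4 pairs could not pass the threshold. With the replicate number as a block, MTHFD2 was called lower at a log2 fold change of -0.28 (adjusted p = 0.0155, edgeR), and its adjusted p ranged up to 0.746 over the other settings. The members' log2 fold changes lay between -0.28 and 0.10, with a median of -0.07.

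Between FWatb and FWctl, 27 members were called lower under FWatb, 3 higher and 4 not, against 25.4% lower and 23.4% higher among all genes tested. The median was -1.15, and 18 members fell by more than 1, a count not made over all genes. ALDH1L2 fell to 0.0526 of its FWctl level (log2 fold change -4.25 ± 0.12, adjusted p = 2.00e-28, edgeR), and PSAT1 (-2.25), SHMT2 (-2.12), MTHFD2 (-1.88), MARS1 (-1.80) and YARS1 (-1.69) followed. Same-numbered samples were taken as pairs from the same mouse. The same 27 were lower in 6 of 6 pairs, against 21.9% of all genes tested, with log2 differences from -4.48 to -3.44 for ALDH1L2 and from -2.26 to -1.94 for SHMT2. The members called higher were EEF1E1 (0.56, adjusted p = 2.96e-06), QARS1 (0.54, adjusted p = 8.04e-09) and FARSB (0.33, adjusted p = 0.000179, all edgeR), each higher in 6 of 6 pairs, as were 20.7% of all genes tested. FARSA was higher in 6 of 6 pairs as well and was called with the pair as a block (0.19, adjusted p = 0.0191, edgeR), which gave 4 higher and 27 lower. VARS1 (0.11), KARS1 (0.11) and SHMT1 (0.07) were not called and were higher in 5 of 6 pairs. For 31 of the 34 members the exact two-sided test by paired sign flips gave 0.0312, the smallest p of 6 pairs, which 1 direction in every pair gives, as in 42.6% of all genes tested. HARS1 lost its call as lower (-0.21) without FWatb replicate 6 (adjusted p = 0.0551, edgeR) or FWctl replicate 4 (adjusted p = 0.0583, edgeR), and FARSA and KARS1 were called higher without FWatb replicate 6 or FWctl replicate 7. In the pair of the library set apart, the log2 difference was -2.40 for ALDH1L2 and 0.27 for ALDH18A1.

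Against the antibiotics alone, 31 members were called higher and 2 lower under FWctl (23.6% and 21.9% among all genes tested). Under FWatb 24 were called higher and none lower by edgeR or DESeq2 (7.66% and 6.86%), and the 1 negative log2 fold change was that of ASS1 (-0.06). The comparisons above share the PBS, ATB or faecal water libraries, so they are not independent of each other. When only the 14 libraries with much ribosomal DNA were used, FWctl against PBS gave 29 higher and 1 lower (19.5% and 18.9% of all genes tested) and FWatb against FWctl 3 higher and 26 lower (23.6% and 23.5%). FWatb against PBS then gave 16 higher (4.24%) and FWatb against ATB 6 (2.80%), with 1 ATB library left that was assumed to vary like the others.

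Set beside the promoter sequences above, the 8 members with a TGATGNAA core had log2 fold changes of 1.09 to 2.20 between FWctl and PBS, with a median of 1.81, and all 8 were above 1. The 18 members with an entry and no core ranged from -0.49 to 2.65, with a median of 0.68, and 7 of them were above 1. PSAT1, PHGDH and MTHFD2 were among those 7. QARS1, KARS1, EEF1E1, SHMT1, FARSA and FARSB had no core in the window either. The members without a promoter entry stand in neither group. Of these, ALDH1L2, SHMT2, YARS1, LARS1 and PSPH rose by more than 1, and VARS1, PYCR1 and GPT2 by less. Whether the core plays a part in these changes was not tested. The E-box CACGTG was found in 5 of 26 (19.2%, against 8.77% of all genes), in IARS1, AIMP2, MTHFD1L, ALDH18A1 and ASS1, and the cAMP response element TGACGTCA in 1 of 26 (3.85%, against 2.25%), in AIMP2. These motifs do not overlap the TGATGNAA cores.

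**Figure D2:**
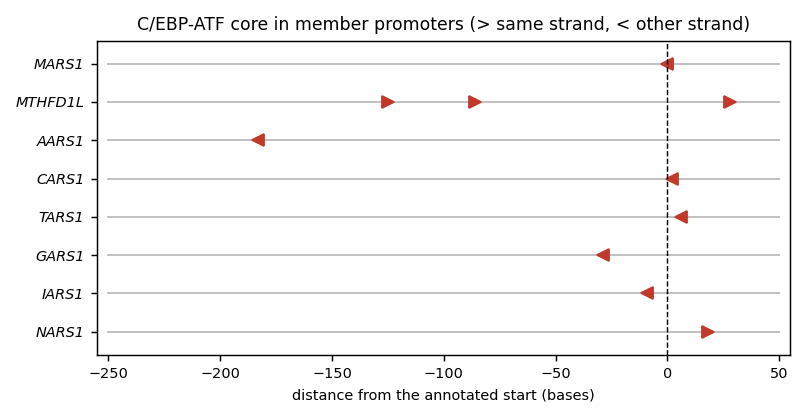
Distance from the annotated start (bases, horizontal axis, from 250 before to 50 after) of the centre of each TGATGNAA core in the 8 members that hold one, with triangles pointing right for the strand of the gene and left for the other. Genes with several annotated starts have 1 triangle per start, so the single core of MTHFD1L appears at -125, -86 and 28.

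Genes of neighbouring pathways were counted in the same way under FWctl against PBS, where 24.3% of all genes tested were called higher and 22.1% lower. Of 16 mitochondrial aminoacyl-tRNA synthetases tested, 8 were called higher, 2 lower and 6 not, with a median of 0.20, and among those higher were YARS2 (0.73) and PARS2 (0.59). TARS3, a further cytosolic threonyl enzyme, was called at 0.29 (adjusted p = 0.0494, edgeR). Of 17 other folate, glycine cleavage and thymidylate genes, 5 were higher, 4 lower and 8 not called, shares near those of all genes, and the largest changes among them were those of SDSL, a serine dehydratase-like gene (2.90), MTR, methionine synthase (0.86), and GGH, gamma-glutamyl hydrolase (-0.86). Of 8 genes of purine synthesis, which uses folate carbons, 6 were higher and 1 lower, with ATIC at 0.99, GART at 0.80 and PRPS2 at -1.13. Under FWatb, where 6.04% of all genes tested were called higher and 3.95% lower against PBS, all 8 purine genes were called higher, with a median of 0.49. Of 16 further amino acid enzymes, 8 were higher and 6 lower, with ASNS, asparagine synthetase, at 3.78, CTH, cystathionine gamma-lyase, at 1.92 and BCAT1, a branched-chain aminotransferase, at 1.81. Of 20 transcription factors and other targets of the integrated stress response, 19 were higher and 1 was not called. The largest changes were those of CHAC1 (4.63), SLC7A11 (4.54) and DDIT4 (3.44). Under FWatb 4 of the 20 were called higher and 2 lower, with a median of 0.05.

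The cells carried the markers of an epithelial line in all groups. EPCAM, an epithelial surface protein, averaged 554, 625, 548 and 604 CPM under PBS, FWctl, FWatb and ATB. The 10 epithelial markers summed to 2400 to 2690 CPM per library under PBS, 2630 to 3050 under FWctl, 2430 to 3260 under FWatb and 2460 to 2700 under ATB. Of the 9 tested, 2 were called higher under FWctl, 3 lower and 4 not, and KRT20, a keratin of differentiated epithelium, fell by 2.74 on the log2 scale. The 5 immune markers summed to 7.43 to 10.6 CPM under PBS, 3.25 to 4.31 under FWctl, 8.43 to 14 under FWatb and 7.66 to 9.99 under ATB. The 5 fibroblast and endothelial markers summed to 23.1 to 26.7, 6.92 to 12.1, 17.5 to 22.3 and 27.4 to 34.8 CPM in the same order, with 3 of 4 tested lower under FWctl and 1 higher. The part of these markers in the results above was not tested.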

How the data were processed

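Total RNA of Caco-2 cells was depleted of ribosomal RNA and sequenced as stranded paired-end libraries. Per the submitters' processing notes and the study's methods, the authors trimmed reads with Trimmomatic 0.38, aligned them to GRCh38 with HISAT2 2.1.0 and counted reads on Ensembl genes using featureCounts (Subread 2.0.0), with a strand setting that is not given in the sources used here. The deposited values are the authors' raw read counts, neither normalized nor filtered, of 61487 genes in 22 samples. Total counts per sample ranged from 7118302 to 18726967. Symbols and coordinates came from GENCODE, in which 61369 identifiers were found.

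The labels gave each sample its group and replicate number. They do not say that replicates came from separate cultures, so p-values measure the spread between these samples. Of 54 replicate pairs, none agreed within counting noise (chi-square over its degrees of freedom, 3.61 to 119). Counts were fitted with edgeR 4.0.16 in R 4.3.3 (TMM, quasi-likelihood test, 1 model of the 4 groups, 21 samples, genes whose count exceeded 5 in 3 or more samples, Benjamini-Hochberg adjustment at 0.05 over 20373 genes). Fold changes are edgeR's, on the log2 scale. Single genes were also compared by exact two-sided permutation tests, or paired sign flips, of log2(CPM + 1). Python 3.11.15, numpy 2.4.6, pandas 2.3.3, scipy 1.17.1 and matplotlib 3.10.9 were used. In data simulated for FWctl against PBS over 19721 genes, edgeR recovered 99 of 100 genes changed by 1 and 75 of 100 changed by 0.5 on the log2 scale, with 11 false calls. In the real data 4942 genes were called higher and 4508 lower. The simulation, with far fewer changed genes, does not show how the fit performs at that extent of change.

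Both faecal waters came from the same mice, per the methods. That same-numbered FWctl and FWatb samples share a mouse was inferred from the numbers. Their deviations correlated at -0.00895 to 0.245 over 6 pairs (mean 0.0898), above 0.1 in 2 of them. Those of ATB and PBS correlated at 0.105 to 0.208 in 4 of 4 pairs, so that a fit with the replicate number as a block is given beside the unpaired one where it changes a call. The edgeR fit of the 4 groups holds no block. Those of FWctl or FWatb and PBS did not pass this check.

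The members and the related lists were chosen with earlier results of these data known. All members were counted. The text names the 2 largest and the smallest changes of each class between FWctl and PBS (whole classes of up to 5), members not called or called against their class, members called under FWatb or ATB with a log2 change above 0.5 or else the 3 largest, and the 3 largest called changes of each related list. Members with a promoter motif and members whose calls changed were named after their values were seen. Some results are not reported here.

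Alternatives were all 22 samples, DESeq2 1.42.0 and its size factors, library size alone, other count filters, only the groups compared, the replicate block, the ribosomal DNA set (divided at 0.5%) as a term or only its high part, a fold change threshold, and each replicate left out. The block over all 7 mouse pairs was added after seeing the data.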

Additional observations from a re-analysis of the deposited data

Results flagged for a closer look

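In 10 of the 136 combinations of member and group, 1 library lay far from the others by Dixon's test, against about 6.8 that chance would give. Replicate 6 of FWatb was the lowest of its group in 6 of them. It held HARS1 at 38.0 CPM (next 44.7), VARS1 at 29.0 (next 40.0), KARS1 at 100 (next 126), QARS1 at 101 (next 119), ALDH18A1 at 490 (next 549) and GPT2 at 39.7 (next 45.9). The others were IARS1 at 255 CPM in FWatb replicate 8 (next 211), MTHFD1L at 58.1 in FWctl replicate 2 (next 48.6), SARS1 at 62.7 in ATB replicate 4 (next 51.5) and AIMP1 at 56.5 in PBS replicate 2 (next 65.3).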

How the results depend on the processing

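The direction of most member counts held under the settings tried. Over all 22 samples, the median log2 fold change was 1.31 for FWctl against PBS and 1.31 for FWctl against ATB. In the latter 1 member was called lower, as were 4252 of the 20532 genes tested. The replicate block gave a median of 1.33 and 2 lower calls for FWctl against PBS (EEF1E1 added, and KARS1, FARSA and FARSB lost), and 1 lower call for ATB against PBS (MTHFD2). Over all genes it gave 3905 higher and 4006 lower of 18949 for FWctl against PBS. The block gave 25 higher calls for FWatb against PBS (SHMT1 and WARS1 added), and it changed no other call against PBS or between the faecal waters than those named here and FARSA above. FWctl and PBS share only 3 replicate numbers, and FWatb and PBS 4. Libraries without a same-numbered partner add nothing to the difference in such a fit, so its lost and gained calls rest on fewer libraries. With only high-rDNA libraries, the ATB against PBS median was 0.0126, 6 members were higher in FWatb against ATB, 1 was lower in FWctl against ATB, and VARS1 (-0.0559) and SHMT1 (-0.0198) changed direction in FWctl against ATB. Library size alone gave 6 higher calls of 34 for FWatb against FWctl, where 5808 of 20373 genes tested were called higher. A threshold of 1 on the absolute log2 fold change gave 0 higher and 18 lower, a count not made over all genes. Without a count filter, 1 member was lower in FWctl against ATB, where 4378 of 41676 genes were called lower. The causes were not tested. Leaving out 1 library gave 28 to 30 higher and 1 to 2 lower calls for FWctl against PBS (median 1.34 to 1.41, 2 lower without FWctl replicate 7), 16 to 25 higher for FWatb against PBS (0.289 to 0.359), 0 for ATB against PBS (-0.107 to -0.0394), 3 to 5 higher and 26 to 27 lower for FWatb against FWctl (-1.17 to -1.08, 5 higher without FWctl replicate 7 or FWatb replicate 6), 21 to 27 higher for FWatb against ATB (0.319 to 0.401), and 29 to 30 higher and 1 to 2 lower for FWctl against ATB (1.33 to 1.43, 1 lower without FWctl replicate 2, 3 or 4 or ATB replicate 1, 3 or 4).

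Over all genes, library size alone moved the higher share of calls from 60.5% to 83.6% for FWatb against PBS, from 47.9% to 59.6% for FWatb against FWctl and from 52.7% to 78.6% for FWatb against ATB. The 58 genes called for ATB against PBS (52 higher, 6 lower) became 197 higher and 25 lower with DESeq2 and 254 and 61 with the replicate block. The 1231 higher and 804 lower for FWatb against PBS became 1939 and 1277 with the block, 699 and 528 over all 22 samples and 778 and 338 with only high-rDNA libraries. With 1 library left out, 4227 to 4780 genes were called higher and 4182 to 4874 lower for FWctl against PBS. For FWatb against FWctl the ranges were 4573 to 5155 and 4590 to 5041. For FWctl against ATB they were 4084 to 4638 and 4096 to 4710. Calls as higher ranged from 756 to 1565 for FWatb against PBS and from 1126 to 1858 for FWatb against ATB. ATB against PBS gave 7 to 73 higher and 0 to 20 lower. Genes with few counts per library, such as ALDH1L2 outside FWctl, limit the precision.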

Other observations

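FWatb replicate 6 was the lowest FWatb library for 30 of the 34 members, with a median log2 deviation of -0.265 from the group mean. It was the lowest for 23.4% of all genes tested, with a median deviation of -0.003. FWatb replicate 8 was the highest for 19 of the 34 (median deviation 0.188), against 13.7% of all genes. Without replicate 6, 25 members were called higher under FWatb than under PBS, with a median of 0.36. Calls over all genes rose as well. Those higher went from 1231 of 20373 to 1565 of 20239, and those lower from 804 to 1024.

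Over the 21 samples, the 561 pairs of members had a median Spearman's rho of 0.753, and 445 pairs were above 0.5. The highest was that of NARS1 and TARS1 (0.979) and the lowest that of QARS1 and AIMP1 (-0.564). With each gene centred on its group means, the median was 0.310, 141 pairs were above 0.5 and the highest was that of PHGDH and SHMT2 (0.875). The points share libraries, normalization and group structure, so these values are descriptions.

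The coefficient of variation of a member within a group had a median of 7.47% under PBS, 8.06% under FWctl, 11.1% under FWatb and 7.93% under ATB. LARS1, the leucyl-tRNA synthetase, was the least variable member under PBS (3.13%) and FWctl (4.52%). VARS1 was the most variable under ATB (32.0%), where replicate 2 held 39.2 CPM and the others 20.8 to 24.6. Replicate 2 was also the only ATB library with much ribosomal DNA (8.19% of counts, against 0.0243% to 0.0344% in the others). Whether this bears on its VARS1 level was not tested.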
